A study of Mus musculus with 6 samples.

Results

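The genes described here are those named for the proteins of the cytosolic ribosome, in mouse primary crypt epithelium, with a few paralogs and copies that bear such names. They were chosen by symbol alone, as genes named Rps or Rpl with a number, with Rpsa, Rplp0, Rplp1 and Rplp2, leaving out the Rps6k kinases and rows marked as pseudogenes by "-ps". The rule gave 86 of the 24930 genes in the table, 33 of the small and 53 of the large subunit. The mutant group was β-cateninGOF/+ crypt epithelium, in which a single β-catenin allele had been made mutant, and the other group was Control epithelium, with 3 libraries each at day 4 after induction. The driver of the mutation, the genotype of Control animals, age and strain are not stated in the labels. Nor do they say if replicates came from different animals, so a p-value reflects only the variation among these libraries, which may be technical. Values are the authors' normalized abundance per gene, called units, and the absolute read depth behind them is unknown. Among genes with a single annotated transcript, the smallest values scaled nearly inversely with transcript length, with a slope of -0.93 over 807 genes on log2 scales, so levels are compared between genes as values per length.

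The ribosome is built from ribosomal RNA and one copy of nearly every ribosomal protein, so the genes of these proteins are expressed at similar levels and tend to vary together. Most of their messenger RNAs begin with a run of pyrimidines directly at the cap, the 5′ terminal oligopyrimidine (TOP) motif, through which mTORC1 and LARP1 control translation and stability of the message. Ribosomal proteins Rpl5 and Rpl11, bound to 5S ribosomal RNA, can inhibit Mdm2, the ligase that degrades p53. In the gut, ribosome production is high in dividing crypt cells, and β-catenin signalling is known to raise Myc, an activator of ribosome production.

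Epithelial markers were high in all 6 libraries, with summed levels of 4167 to 6107 units over 6 genes, none at 0. Ctnnb1, the gene of β-catenin, had 262, 236 and 285 units in mutant libraries and 246, 248 and 273 units in Control libraries (log2 difference 0.03, limma adjusted p = 0.954), and a value for the whole gene does not measure the mutant allele. Paneth cell alpha-defensins held 11.1 to 37.4% of all units in mutant libraries and 24.8 to 49.9% in Control libraries. Xist and Y-linked genes marked 1 mutant and 2 Control libraries as male. Mutant library 3 stood apart, with the highest enterocyte and the lowest stem cell, Paneth cell and proliferation marker levels of the 6.

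Ribosomal protein genes were among the most abundant messages of crypt epithelium. They made up 38 of the 100 genes with the highest mean, 68 of the top 200 and 77 of the top 500. Their summed level was 64288, 87100 and 58545 units in mutant libraries and 73573, 91232 and 70788 units in Control libraries. As a share of all units this was 9.96, 9.26 and 8.82% in mutant libraries and 5.80, 10.3 and 9.35% in Control libraries. As a share of the units outside the defensins it was 12.0, 14.8 and 9.92% in mutant libraries and 11.6, 15.7 and 12.4% in Control libraries. Mutant library 2 and Control library 2 had the largest sums, and the groups overlapped on each scale. The highest mean was that of Rps12, a small subunit protein, at 1869, 2627 and 1746 units in mutant libraries and 2214, 2724 and 2096 units in Control libraries. Rpl41, the shortest ribosomal protein, followed at 1565, 2669 and 1800 units in mutant libraries and 2184, 2704 and 2090 units in Control libraries. Mutant library 2 lay among the Control values for both genes, while mutant libraries 1 and 3 lay below all Control values. At the other end, Rpl39l, Rpl3l and Rpl10l, relatives of Rpl39, Rpl3 and Rpl10, had means under 1 unit and were not tested. Rpl10l was listed at 0 in 5 of the 6 libraries. The remaining 83 genes were tested.

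Start-site sequences from RefSeq on GRCm38.p6 are shown for 6 genes because the TOP motif is the sequence feature best known to tie this family together. Each line runs from 5 bases before the annotated start to 25 bases within the transcript, and capitals mark runs of at least 7 pyrimidines (C or T). Rps6, Rps27, Rps18, Rplp2 and Rpl22l1 carried such a run within a few bases of the start. Rps27l had none in the printed bases, as was the case for 31 of the 62 tested genes with a sequence. In the wider window from 20 bases before to 40 after this start, Rps27l did have a run, of 9 pyrimidines.
Rps6, chr4:86857343-86857372, minus strand: cgggCCTCTTTTTCgtgacgcctcccaggc
Rps27, chr3:90213624-90213653, minus strand: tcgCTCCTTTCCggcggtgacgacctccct
Rps18, chr17:33955641-33955670, minus strand: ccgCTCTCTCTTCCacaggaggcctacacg
Rplp2, chr7:141447646-141447675, plus strand: TCTTCCTTTCgccgccggacgccgccgagg
Rpl22l1, chr3:28805503-28805532, plus strand: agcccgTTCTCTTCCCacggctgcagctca
Rps27l, chr9:66946081-66946110, plus strand: ccgccgcctctatcccggaagttgctgagg
A promoter entry was found for 62 of the 83 tested genes. A run of at least 7 pyrimidines on the transcribed strand, within 20 bases before to 40 after the annotated start, was found in 49 of the 62 (79.0%), against 3303 of the 9418 tested genes with an entry (35.1%). Between 250 bases before and 50 after the start, ACTTCCG, the core of the site of ETS factors, was found on either strand in 22 (35.5%), against 15.5% of tested genes. CACGTG, the E-box bound by Myc, was found in 6 of the 62 (9.68%), against 12.0% of tested genes. AAGATGG, the core of the YY1 site, was found in 10 (16.1%), against 8.64%. All 3 of these motifs were searched on both strands. The matches describe letters near annotated starts and do not show binding, and the motifs were searched independently and can overlap.

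The ribosomal protein genes moved up and down together from library to library, and this common movement was wider within the mutant group than between the groups. For each library the median over the 83 genes of log2(units + 1) minus the gene's mean over 6 libraries was taken as the common level. It was -0.19, 0.24 and -0.37 in mutant libraries 1, 2 and 3, and 0.02, 0.34 and -0.02 in Control libraries 1, 2 and 3. The mean was -0.11 ± 0.31 in mutant libraries and 0.12 ± 0.20 in Control libraries (SD, n = 3 each), a difference of -0.22 that is smaller than the SD of the mutant libraries and slightly larger than that of the Control libraries. Both subunits followed the same course, with -0.20, 0.22 and -0.37 in mutant and 0.04, 0.35 and -0.01 in Control libraries for the small subunit. The large subunit had -0.19, 0.26 and -0.37 in mutant and 0.02, 0.33 and -0.02 in Control libraries. Single genes kept close to this level: between 68 and 79 of the 83 lay within 0.25 log2 of it in each mutant library, and between 75 and 78 in each Control library. The highest value of a gene was in Control library 2 for 56 genes and in mutant library 2 for 25. The lowest was in mutant library 3 for 59 genes and in mutant library 1 for 13. The median SD within groups was 0.28 on the log2 scale, against 0.28 for 780 other genes averaging 100 units or more, and came to 0.09 once the common level was subtracted.

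**Figure D1:**
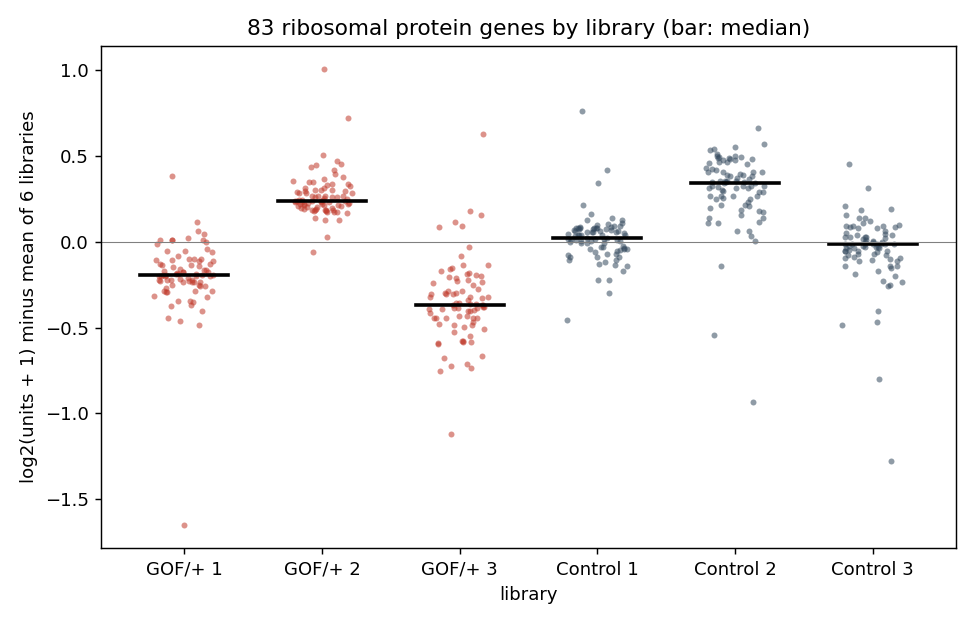
Each point is 1 of 83 ribosomal protein genes in 1 library, as log2(units + 1) minus the gene's mean over 6 libraries on the y axis, with libraries on the x axis and a bar at the median. Mutant library 2 and Control library 2 sit high at 0.24 and 0.34, and mutant library 3 sits lowest at -0.37.

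Cell type and proliferation markers also differed between libraries. Median levels of 6 proliferation markers were -0.05, 0.37 and -0.71 in mutant libraries and 0.13, 0.51 and -0.10 in Control libraries, measured in the same way. Those of 4 stem cell markers were -0.08, 0.35 and -1.38 in mutant libraries and 0.50, 0.59 and 0.05 in Control libraries. Paneth cell markers (6 genes) had -0.95, 0.38 and -1.52 in mutant and 1.64, 0.56 and -0.30 in Control libraries, and 6 enterocyte markers had 0.66, -0.45 and 1.31 in mutant and -1.03, -0.85 and 0.35 in Control libraries. The second library of each group was thus high in proliferation markers and in ribosomal protein genes, and mutant library 3 was low in both. The 7 stroma markers had summed levels of 9.56 to 22.4 units in mutant and 0.44 to 1.51 units in Control libraries. The 4 that were tested reached the mean of 1 unit only through the mutant libraries, so their overlap between groups was not counted. None of these markers was at 0 in every library. The part of cell composition in the ribosomal protein levels was not tested, and in bulk RNA fewer cells of a type and less RNA per cell cannot be told apart.

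No ribosomal protein gene passed the test between mutant and Control crypts. Of the 83 tested genes 69 were lower and 14 higher in mutant libraries, with a median log2 difference of -0.23, while 52.7% of all 11837 tested genes were lower and 47.3% higher, with a median of -0.02. With limma on log2(units + 1) and Benjamini-Hochberg adjustment over all tested genes, 0 of the 83 passed 0.05 in either direction, against a background of 0.0% higher and 0.0169% lower, and the smallest adjusted p was 0.589. At an unadjusted p under 0.05, 2 genes (Rps4l and Rps27l) were higher and 0 lower, against 4.72% and 3.59% of all tested genes. In 3 genes, Rps4l, Rps27l and Rplp2, every mutant value lay above every Control value, against 8.34% of all tested genes. The reverse held for 0 genes, against 8.37%. The small subunit had 28 lower and 5 higher genes (median -0.23), and the large subunit had 41 lower and 9 higher (median -0.22). Among the 77 core genes, without paralogs and copies, 66 were lower and 11 higher (median -0.24), with 0 past the limma test and 0 at an unadjusted p under 0.05. The lower count depended on single libraries and on scaling: without mutant library 3 it was 62 of 83 with a median of -0.09, without Control library 2 it was 60 with a median of -0.12, and without mutant library 2 it was 75 with a median of -0.40. Rescaling to equal totals without defensins gave 66 lower genes and the upper quartile gave 72. Rescaling each library to the ribosomal protein median gave 44, a nearly even split that this scale sets by construction. Within male libraries (1 mutant, 2 Control) 75 genes were lower with a median of -0.38, and within female libraries (2 mutant, 1 Control) 50 were lower with a median of -0.05.

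**Figure D2:**
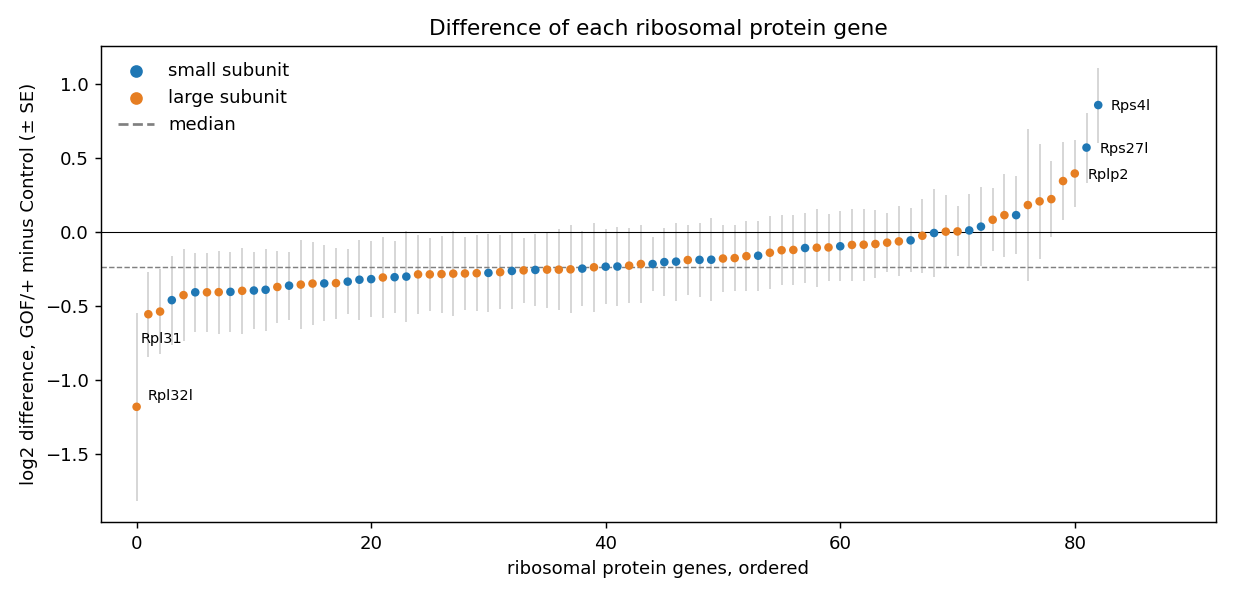
Each point is 1 of 83 ribosomal protein genes on the x axis, ordered by its log2 difference, mutant minus Control, on the y axis, with its SE as a line and colour for the subunit. Most points lie below 0 around the dashed median of -0.23, with Rpl32l at -1.18 and Rps4l at 0.86 at the ends.

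Among small subunit proteins, counted without near copies, those with the largest negative differences were Rps4x and Rps7. Rps4x, the X-linked gene of a core protein, had 997, 1263 and 663 units in mutant libraries and 1208, 1559 and 1155 units in Control libraries (log2 difference -0.46 ± 0.30 SE, limma adjusted p = 0.607), and -0.21 without mutant library 3. Rps7 had 628, 882 and 499 units in mutant libraries and 799, 1012 and 798 units in Control libraries (-0.41), and -0.22 without mutant library 3. In both genes the value of mutant library 2 lay among the Control values and the other 2 mutant values lay below them. Rps19, mutated in human Diamond-Blackfan anaemia, had 1011, 1400.3 and 984 units in mutant and 1492, 1812 and 1195 units in Control libraries (-0.40). Rps6, the substrate of S6 kinases, had 657, 857 and 521 units in mutant and 787, 983 and 735 units in Control libraries (-0.32). Rps14, whose loss underlies the anaemia of human 5q- syndrome, differed by -0.30, and Rpsa, also known as the laminin receptor, by -0.26. For these 4 genes the limma adjusted p lay between 0.612 and 0.682, and the groups overlapped. Rps27a, made as a fusion with ubiquitin, differed by -0.16, Rps12 by -0.19 and Rps18 by -0.01. Single libraries weighed on these values: without mutant library 3 Rps6 was at -0.14 and Rps12 at -0.07, and without Control library 2 Rps19 was at -0.26, Rps14 at -0.16, Rpsa at -0.11 and Rps27a at -0.04.

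Among large subunit proteins above 100 units, counted without near copies, Rpl31 and Rpl17 had the largest negative differences. Both sit near the exit of the peptide tunnel. With its near copy added, Rpl31 differed by -0.38, less than Rpl32 at -0.43. Rpl31 had 239, 385 and 193 units in mutant libraries and 340.1, 460.1 and 361 units in Control libraries (log2 difference -0.56 ± 0.29 SE, limma adjusted p = 0.589), and -0.34 without mutant library 3. Rpl17 had 702, 987 and 519 units in mutant and 943, 1200 and 973 units in Control libraries (-0.54), and -0.31 without mutant library 3. Rpl32, among the 5 most abundant of the family, had 1278, 1798 and 935 units in mutant and 1630, 2084 and 1534 units in Control libraries (-0.43), and -0.19 without mutant library 3. All 3 genes overlapped between groups through mutant library 2. The 5S particle proteins that bind Mdm2 were Rpl5, with 417, 507 and 258 units in mutant and 452, 602 and 459 units in Control libraries (-0.40), and Rpl11, with 429, 600 and 368 units in mutant and 470.4, 574 and 492 units in Control libraries (-0.16). Without mutant library 3 these differences were -0.12 and -0.01. Rpl23, another binder of Mdm2, differed by -0.28 and overlapped. Rpl3, at the peptidyl transferase centre, differed by -0.36, and Rpl10, which in yeast joins the subunit in the last steps of its maturation, by -0.28. Rpl7 and Rpl39 each differed by -0.25 and Rpl41 by -0.24. Without mutant library 3 Rpl23 was at -0.14, Rpl3 at -0.11, Rpl10 at -0.10 and Rpl7 at -0.10, and without mutant library 1 Rpl39 was at -0.14 and Rpl41 at -0.08. Rpl38, needed for translation of Hox messages in the mouse embryo, had 1018 to 1490.1 units in mutant and 1108 to 1283 units in Control libraries (0.00), Rpl13a, which takes part in translational silencing in human myeloid cells, differed by -0.12, Rpl18 by 0.08 and Rpl29 by 0.11.

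Rplp1 and Rplp2, which form the flexible stalk that recruits elongation factors, were among the 14 genes with a positive difference, and neither passed the test. Rplp0, which anchors the stalk, was not among them. Rplp2 had 1050.2, 1307 and 1124 units in mutant libraries and 921, 1011 and 728 units in Control libraries (log2 difference 0.40 ± 0.23 SE, limma adjusted p = 0.590). Every mutant value was above every Control value, by a narrow margin between mutant library 1 and Control library 2. Rplp1 had 1857, 2424 and 1998 units in mutant and 1584, 1987 and 1398 units in Control libraries (0.34 ± 0.26 SE, limma adjusted p = 0.629), with Control library 2 among the mutant values. Without Control library 3, the lowest for both genes, the differences were 0.26 for Rplp2 and 0.23 for Rplp1. Rplp0 had 1166, 1438 and 898 units in mutant and 1204, 1182 and 1115 units in Control libraries (-0.03), with the groups overlapping. Its direction turned in several alternatives, to 0.03 with equal totals without defensins and to 0.20 when rescaled to the ribosomal protein median. Relative to the common level, Rplp1 lay 0.20, 0.15 and 0.48 log2 above it in mutant libraries and -0.24, -0.24 and -0.38 from it in Control libraries. Rpl36, a large subunit protein, had 622, 898 and 646 units in mutant and 703, 688 and 471 units in Control libraries (0.22), and 0.03 without Control library 3.

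**Figure D3:**
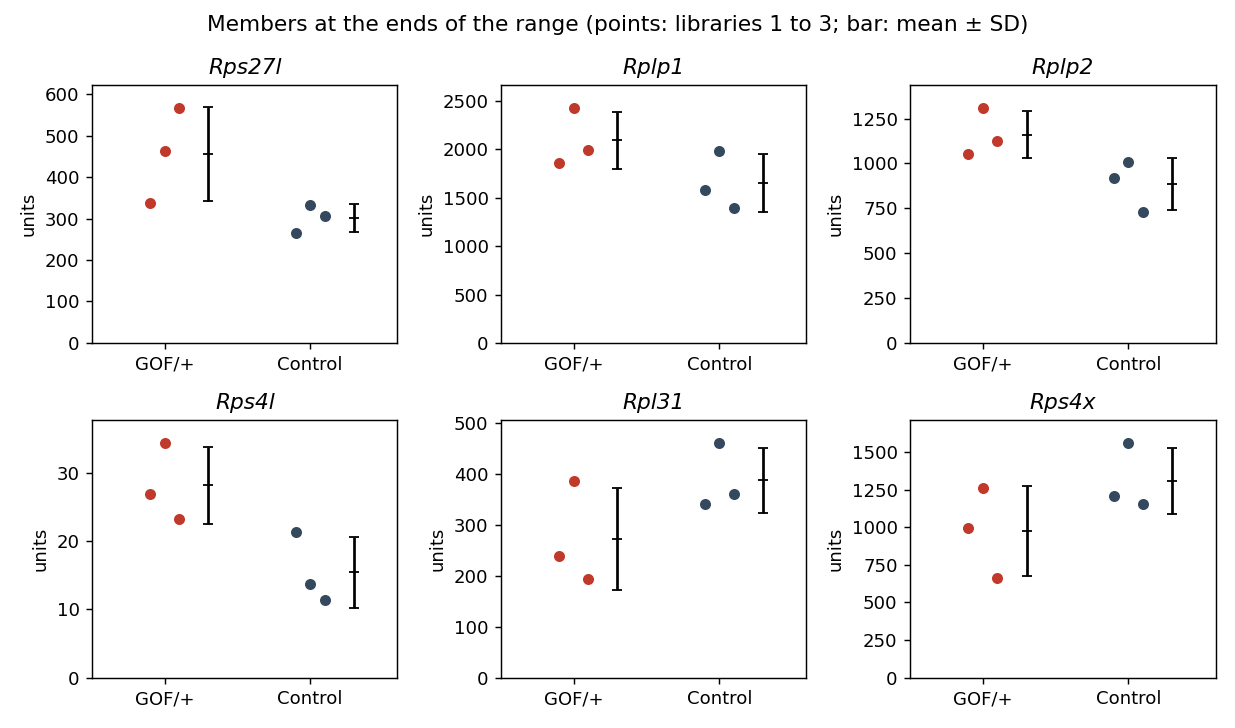
Units on the y axis for 6 genes in 3 mutant libraries (left) and 3 Control libraries (right), each point a library and the bar the mean ± SD. Rps27l, Rplp2 and Rps4l do not overlap between groups, and Rplp1, Rpl31 and Rps4x do.

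The abundant paralog with the largest positive difference was Rps27l, known as a target of p53 in human and mouse cells. Rps27l had 338, 462 and 566 units in mutant libraries and 266, 332 and 306 units in Control libraries, with means of 456 ± 114 in mutant and 301 ± 33.2 in Control libraries (SD, n = 3 each). The log2 difference was 0.57 ± 0.24 SE (limma adjusted p = 0.589), and all 3 mutant values were above all Control values. It did not follow the family, since mutant library 3, lowest for most members, was the highest for Rps27l. Its core partner Rps27 had 1181, 1046 and 994 units in mutant and 972, 1233 and 1152 units in Control libraries (-0.06). The share of Rps27l in the sum of both was 22.3, 30.7 and 36.3% in mutant libraries and 21.5, 21.2 and 21.0% in Control libraries. The coding sequences of both genes, 255 bases each in GENCODE M21, are shown because they are the pair whose balance differed most among abundant messages. Capitals mark the 61 positions at which they differ, and 76.1% of bases were identical.
Rps27l: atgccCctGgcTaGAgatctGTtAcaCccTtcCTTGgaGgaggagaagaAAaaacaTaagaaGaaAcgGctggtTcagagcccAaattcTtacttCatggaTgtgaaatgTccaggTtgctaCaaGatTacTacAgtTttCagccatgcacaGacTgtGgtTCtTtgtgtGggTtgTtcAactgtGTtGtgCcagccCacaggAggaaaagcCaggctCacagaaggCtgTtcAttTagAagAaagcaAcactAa
Rps27: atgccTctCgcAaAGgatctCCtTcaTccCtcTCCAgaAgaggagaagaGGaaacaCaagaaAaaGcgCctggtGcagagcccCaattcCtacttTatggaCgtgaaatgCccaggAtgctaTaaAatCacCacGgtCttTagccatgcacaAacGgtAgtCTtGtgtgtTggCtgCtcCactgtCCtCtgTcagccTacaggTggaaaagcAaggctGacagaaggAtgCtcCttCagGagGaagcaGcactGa
The list of p53 targets and of genes of the 5S particle checkpoint, which does not hold Rps27l, was examined beside it. Of its 15 tested genes 14 were higher, 11 had all mutant values above all Control values (8.34% of all tested genes did) and 0 passed the test by limma (unadjusted p was under 0.05 for 8 of the higher genes, against 4.72% of all tested genes, and for 0 of the lower), with a median log2 difference of 0.97. Its median level was -0.04, 0.25 and 1.08 in mutant and -0.42, -0.39 and -0.53 in Control libraries. Phlda3, counted among the 11, had 3.03, 4.39 and 26.6 units in mutant and 0.16, 0.21 and 0.45 units in Control libraries. It reached the mean of 1 unit needed for testing only through the mutant libraries. The counts and the median of this list include Phlda3 and are not read as an excess over all tested genes. Mdm2 had 22.9, 21.2 and 68.6 units in mutant and 16.4, 15.2 and 16.4 units in Control libraries. Cdkn1a, the cell cycle inhibitor p21, had 93.5, 75.5 and 307 units in mutant and 45.6, 44.8 and 57.2 units in Control libraries. Mdm2, Cdkn1a and Rps27l were each highest in mutant library 3, and whether these values share a source was not tested.

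Of 8 pairs of a paralog and its core gene, 5 had a higher paralog share in every mutant library than in any Control library. No such share was computed for other gene pairs, while 8.34% of single tested genes had all mutant values above all Control values. The core genes of these 5 pairs all had negative differences, as did the common level, so a paralog that keeps its level gains share. The test was an exact two-sided permutation test of the log2 ratio of (units + 1), whose smallest possible p with 3 against 3 libraries is 0.1, so no pair could reach 0.05. For Rps27l over Rps27 the log2 ratio differed by 0.63 (exact permutation p = 0.1), by 0.40 without mutant library 3 and by 0.80 when near copies were added to Rps27. Rpl22l1 was the more abundant of its pair, and Rpl22 protein is known to repress Rpl22l1 in mice. The share of Rpl22l1 was 74.5, 71.2 and 70.9% in mutant and 68.8, 69.6 and 67.7% in Control libraries, a log2 ratio difference of 0.24 (exact permutation p = 0.1). Rpl22 differed by -0.34 on the log2 scale, or -0.15 without Control library 2, and Rpl22l1 by -0.11. The share of Rpl36al against the X-linked Rpl36a was 45.9, 44.8 and 46.0% in mutant and 42.0, 36.0 and 43.4% in Control libraries (0.30, exact permutation p = 0.1). The mutant shares were close together, and Control library 2 was the lowest of the 6. Rpl7l1, a relative of Rpl7, had a share of 4.09, 3.89 and 4.29% in mutant and 3.45, 3.26 and 3.63% in Control libraries (0.26, exact permutation p = 0.1). Its own level barely differed (log2 difference 0.00). Rps4l, annotated in GENCODE M21 as a transcribed processed pseudogene, had 27.0, 34.4 and 23.3 units in mutant and 21.3, 13.7 and 11.3 units in Control libraries, with a log2 difference of 0.86 ± 0.25 SE. Its share against Rps4x was 2.63, 2.65 and 3.39% in mutant and 1.73, 0.87 and 0.97% in Control libraries (1.32, exact permutation p = 0.1). Adjusted over the 8 pairs, p was 0.160 for each of the 5. The pairs of Rpl39l, Rpl3l and Rpl10l had exact permutation p of 0.9, 0.5 and 0.3, with paralogs under 1 unit. In the pairs of Rpl22l1, Rpl36al and Rpl7l1 the core gene held the larger part of the difference, and in those of Rps27l and Rps4l the paralog did.

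**Figure D4:**
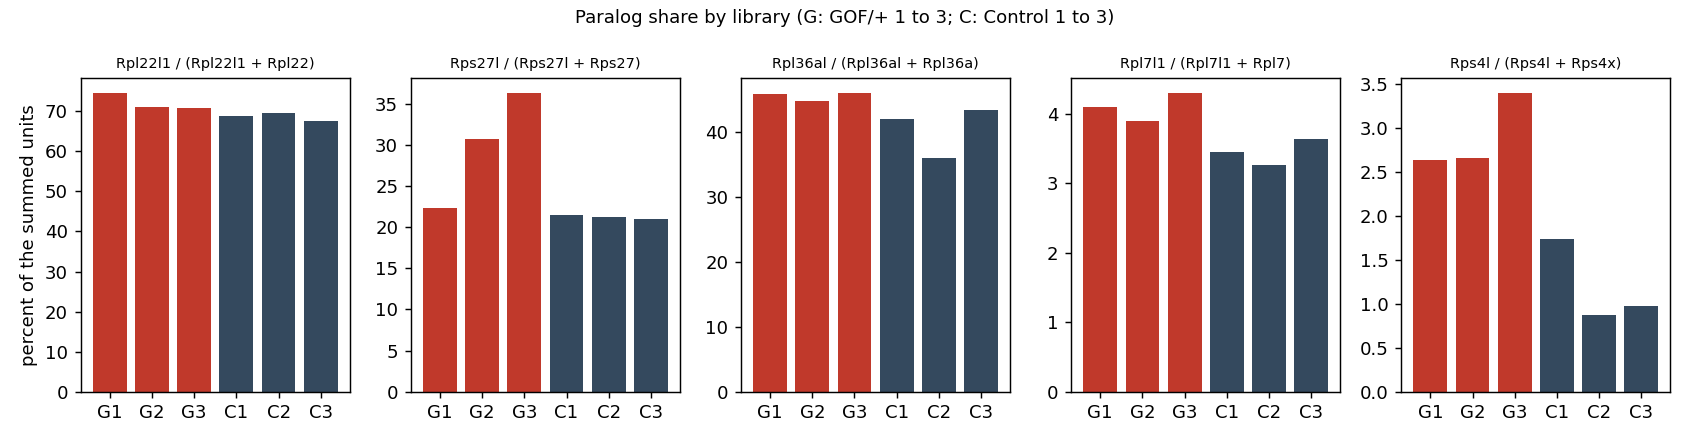
The y axis gives the paralog as a percent of the summed units of paralog and core gene, with a bar for each mutant (G1 to G3) and Control (C1 to C3) library, on axes that start at 0 with a scale of their own. In all 5 pairs every mutant bar is above every Control bar, and Rps27l reaches 36.3% in G3.

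Rpl30 and Rpl34 each had 1 library far from the others, and in that library a near copy was high. Near copies (at least 95% identity over at least 80% of the coding sequence) were found in the reference for 77 of the 86 genes, 569 copies in all, of which 20 were rows of the table and belonged to 18 genes. Rpl30 had 903, 1201 and 750.5 units in mutant libraries and 1112, 1389 and 361 units in Control libraries. Gm12191, a processed pseudogene, had 41.8, 87.1 and 32.9 units in mutant and 72.2, 85.3 and 753 units in Control libraries. The low value of Rpl30 in Control library 3 thus stood beside a high value of the copy. Over 348 coding bases the copy differed from Rpl30 by G96A, counted from 1 at the start codon with the base of Rpl30 first. It is shown because coding reads away from this base cannot tell the gene and its copy apart, with the differing base in capitals.
Rpl30: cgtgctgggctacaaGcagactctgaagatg
Gm12191: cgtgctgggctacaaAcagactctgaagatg
The sum of Rpl30 with its copies was 946, 1289 and 784 units in mutant and 1185, 1475 and 1114 units in Control libraries. The log2 difference was 0.18 for Rpl30 alone and -0.34 for the sum. Rpl34 had 748, 1003 and 675 units in mutant libraries and 989, 387 and 858 units in Control libraries, while its pseudogene Rpl34-ps1 had 48.9, 157 and 49.1 units in mutant and 90.3, 949 and 124 units in Control libraries. Here Control library 2 held the low value of the gene and the high value of the copy. The copy differed from Rpl34 by T132C and C318G, as shown in both windows.
Rpl34: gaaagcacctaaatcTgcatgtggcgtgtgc
Rpl34-ps1: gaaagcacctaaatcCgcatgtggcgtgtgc
Rpl34: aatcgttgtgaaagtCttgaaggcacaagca
Rpl34-ps1: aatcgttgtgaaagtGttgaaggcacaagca
The sum was 797, 1160.0 and 724 units in mutant and 1080, 1336 and 982 units in Control libraries, with a log2 difference of -0.36, against 0.21 for Rpl34 alone. The SD over the 6 libraries on the log2 scale was 0.70 for Rpl30 and 0.51 for Rpl34, against 0.33 for each of the sums, so the sums followed the family. Rps27 and Rps27rt were identical over all 255 coding bases, so their split is uncertain. Rps27rt had 112, 552 and 226 units in mutant and 472, 612 and 376 units in Control libraries, and the sum of both genes had a log2 difference of -0.23. Rpl31-ps12, at 99.1% identity to Rpl31, had 466, 525 and 308 units in mutant and 426, 586 and 529 units in Control libraries. It was above Rpl31 itself in every library, and their sum had a difference of -0.38. Rps15a had 27.8 to 43.3 units alone and 177 to 407 units with Rps15a-ps4 and Rps15a-ps6. Its difference was -0.22 alone and -0.46 for the sum. Rpl29 with its copy Gm8580 had a summed difference of 0.02, and Gm8580 itself had 0.99, 1.22 and 0.93 units in mutant and 69.4, 38.8 and 26.6 units in Control libraries. Rpl32l, annotated in GENCODE M21 as a processed pseudogene, had 1.04, 11.9 and 1.96 units in mutant and 9.87, 8.41 and 7.78 units in Control libraries (log2 difference -1.18 ± 0.63 SE, limma adjusted p = 0.590), -0.64 without mutant library 1 and -1.97 without mutant library 2. With all near copies added, 71 of the 83 genes were lower and 12 higher, with 0 past the test.

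**Figure D5:**
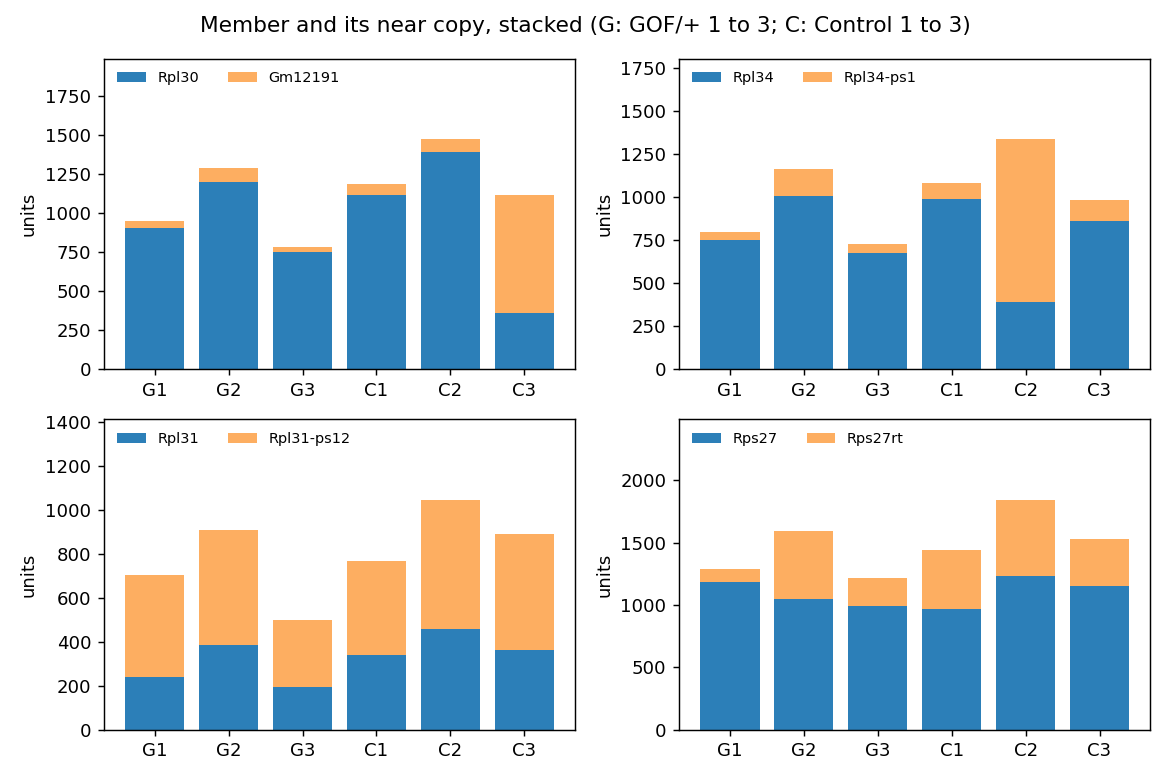
Stacked bars give the units (y axis) of a ribosomal protein gene and 1 near copy in each mutant (G1 to G3) and Control (C1 to C3) library. The stacks of Rpl30 in C3 and of Rpl34 in C2 are mostly copy, and their total heights lie close to those of the other Control libraries.

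Genes around the ribosome were described with lists of related function, none of which had a gene past the test by limma. At an unadjusted p under 0.05, 2 translation factors, 4 biogenesis factors, 5 mitochondrial ribosomal proteins and 1 gene of the mTORC1 axis were higher, and 1 gene of that axis was lower. These counts of 31, 67, 78 and 25 tested genes are to be read against 4.72% higher and 3.59% lower of all tested genes, which leaves them near the background. Lists can share genes, as with Sesn2 in the mTORC1 axis and the p53 list, so the counts are not all of separate genes. Of 21 other genes with TOP messages 17 were lower and 4 higher (median log2 difference -0.17), with differences from -0.396 to 0.175. Their common level was -0.12, 0.15 and -0.35 in mutant and 0.03, 0.26 and -0.07 in Control libraries. Eef1a1, the main elongation factor, had 3884, 4206 and 2523 units in mutant and 4262, 5377 and 3973 units in Control libraries (-0.38), and Tpt1 had 1407, 1695 and 1179 units in mutant and 1644, 2098 and 1777 units in Control libraries (-0.37). Eef2, which moves the ribosome along the message, had 949, 907 and 615 units in mutant and 959, 1150.3 and 811 units in Control libraries (-0.25). The median level of these genes, like that of the ribosomal proteins, was highest in the second library of each group and lowest in mutant library 3, while Eef2 was lower in mutant library 2 than in mutant library 1. Rack1, a scaffold protein bound to the small subunit, had a log2 difference of -0.34, and Fau, which encodes the small subunit protein eS30, had one of 0.01. Translation factors outside the TOP list had 22 higher and 9 lower genes of 31 (median 0.10). Ribosome biogenesis factors, which process ribosomal RNA and assemble the subunits, had 49 higher and 18 lower genes of 67 (median 0.08). Their common level was -0.08, 0.27 and -0.04 in mutant and -0.05, 0.08 and -0.20 in Control libraries. Npm1, a nucleolar chaperone, had 339, 524 and 390.0 units in mutant and 345, 463 and 301 units in Control libraries. Its difference of 0.175 equals the highest value among the other TOP genes. Mitochondrial ribosomal proteins had 43 higher and 35 lower genes of 78 (median 0.02), with levels of -0.04, 0.28 and -0.22 in mutant and -0.10, 0.12 and -0.03 in Control libraries. So the medians of biogenesis factors and mitochondrial ribosomal proteins lay nearer that of all genes (-0.02) than did the median of the cytosolic ribosomal proteins. Regulators in the mTORC1 axis had 20 lower and 5 higher genes of 25 (median -0.14), and chaperones and importins of ribosomal proteins had 12 lower and 4 higher of 16 (median -0.10).

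Rescaling each library to the median of the ribosomal proteins, an alternative chosen after seeing the data, gives each member relative to the family. On this scale the median of all genes was 0.18, against -0.02 before. The split of the 83 genes into 39 higher and 44 lower is nearly even by construction. By limma 0 passed the test, with a smallest adjusted p of 0.675. At an unadjusted p under 0.05 Rps4l, Rplp2, Rplp1 and Rps27l were higher, a share of the 83 near the 4.65% of all tested genes, while 0.958% of all tested genes were lower. Rps4l differed by 1.07, Rps27l by 0.79 ± 0.28 SE, Rplp2 by 0.62 and Rplp1 by 0.57 ± 0.18 SE. At the other end Rpl32l differed by -1.03 ± 0.56 SE.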

How the data were processed

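Poly-T purified messenger RNA of 6 crypt epithelium libraries was sequenced on an Illumina platform after random priming, per the labels' protocols. The authors deposited a normalized abundance signal for each gene. The mm9 build, DESeq2 1.40.1 and kallisto 0.46.1 were named, per the submitters' processing notes, without role or order, and how the values were computed is not given in the sources used here. Groups came from sample titles. Mutant columns carry the name exonhet and were assigned to the one group with a mutant title. The members, lists and tests were chosen with earlier results of these data known.

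Values were transformed to log2(units + 1), and the 11837 genes averaging 1 unit or more were tested in R 4.3.3 by limma 3.58.1 (mean-variance trend, no covariate). P-values were adjusted by Benjamini-Hochberg, with a threshold of 0.05. Differences on the log2 scale are mutant minus Control and understate the change of low genes. The test was tried on simulated data in which each gene was drawn independently. That trial does not cover genes that move together from library to library. Named were the 6 largest positive and negative differences among members with a mean of at least 5 units, the 5 highest means, genes of fixed roles, and the 3 smallest and largest spreads; genes of the lists were chosen after their values were seen. Near copies were sought with BLAST+ 2.17.0 in GENCODE M21 transcripts, and start sequences are from RefSeq (GRCm38.p6), which is not the mm9 build. How reads shared by a gene and its copy were assigned is not described in the sources used here. Alternatives were 4 rescalings (1 of them added later), filters of none and 5 units, a pseudocount of 0.1 or 5, weighted libraries (array weights), a block for replicate number, sex as a covariate, added "-ps" rows or near copies (the latter added later), and leaving out each library. Python 3.11.15, pandas 2.3.3, NumPy 2.4.6, Biopython 1.88 and matplotlib 3.10.9 were used.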

Additional observations from a re-analysis of the deposited data

Results flagged for a closer look

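For 5 genes the difference between mutant and Control had opposite signs in the male (1 mutant, 2 Control) and the female (2 mutant, 1 Control) libraries, with every library on that side. For each gene the difference between the sexes was not tested. The share of all tested genes with this pattern was not computed, so the count is not read as an excess. The common level of the family itself differed by -0.37 in male and -0.05 in female libraries. Rpl30 differed by -0.46 in male and 1.39 in female libraries, a gap of -1.85, and its low Control library 3 was the single female Control library, in which the near copy Gm12191 was high. Rpl36 differed by -0.16 in male and 0.69 in female libraries, a gap of -0.85. Rpl18 differed by -0.13 in male and 0.29 in female libraries, a gap of -0.41. Rps21 differed by -0.38 in male and 0.34 in female libraries, a gap of -0.72, and Rpl14 by -0.38 in male and 0.25 in female libraries, a gap of -0.64.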

How the results depend on the processing

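No ribosomal protein gene passed the test in any alternative run. The median difference of the family ran from -0.40 without mutant library 2 to -0.09 without mutant library 3, leaving aside the scale of the ribosomal protein median. On that scale it was -0.01, which is near 0 by construction. The smallest adjusted p of a member was 0.108, for Rpl32l with array weights. Over all genes 2 passed, against 6 with equal totals without defensins, 0 without a filter, 1 with a pseudocount of 5, 27 with array weights, 0 with the replicate block, 0 with sex as a covariate, 0 on the ribosomal protein scale, and 0 (without mutant library 3) to 4 (without Control library 2) when single libraries were left out. The cause of these moves was not tested.

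The labels give both groups the same replicate numbers. Correlations of same-numbered libraries were -0.29, 0.33 and 0.32, so the numbers were not taken to pair them, and mutant library 1 and Control library 1 correlated best with a library numbered 2. The replicate block changed no call of a member, with a smallest adjusted p of 0.383 for Rps4l, and exact p for the 5 paralog pairs became 0.25, the smallest that 3 pairs allow.

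Of the genes named, some with small differences turned direction. On the ribosomal protein scale, where the median of all genes is 0.18 instead of -0.02, Rpl11 (0.059), Rpl13a (0.10), Rpl22l1 (0.12), Rpl36al (0.12), Rplp0 (0.20), Rps12 (0.035), Rps18 (0.22), Rps27 (0.17) and Rps27a (0.062) became positive. With array weights Rpl18 (-0.021), Rpl34 (-0.0097) and Rpl38 (-0.13) became negative and Rplp0 (0.00069) and Rps27 (0.12) positive. With the upper quartile Rpl38 (-0.018) and Rpl7l1 (-0.016) became negative. With equal totals without defensins Rplp0 (0.032), Rps18 (0.051) and Rps27 (0.00093) became positive. With sex as a covariate Rpl38 (-0.029) and Rps18 (0.027) turned. Added near copies gave Rpl30 (-0.34) and Rpl34 (-0.36), and added "-ps" rows gave Rpl34 (-0.36). The ratio of Rpl39l to Rpl39, with the paralog under 1 unit, turned to -0.76 with a pseudocount of 0.1 and -0.10 on the ribosomal protein scale, and ran from -0.12 to 0.35 without single libraries. Without single libraries Rpl13a ran from -0.27 to 0.0061, Rpl22l1 from -0.25 to 0.12, Rpl29 from -0.11 to 0.32, Rpl30 from -0.41 to 0.56, Rpl34 from -0.21 to 0.47, Rpl36al from -0.30 to 0.023, Rpl38 from -0.17 to 0.10, Rpl7l1 from -0.11 to 0.12, Rplp0 from -0.19 to 0.15, Rps18 from -0.16 to 0.22 and Rps27 from -0.16 to 0.017. Depth is unknown, so counting error of the low paralogs could not be given.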

Other observations

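Other genes around the ribosome had no gene past the test either. Kinases of ribosomal proteins, the S6 kinase family among them, had 4 higher and 5 lower genes of 9, with a median log2 difference of 0.00. Genes of the MYC family and its partners had 7 higher and 5 lower of 12 (median 0.15), and their median level was 0.04, -0.03 and 0.28 in mutant and -0.03, -0.05 and 0.00 in Control libraries. Genes that rescue stalled ribosomes had 10 higher and 12 lower of 22 (median -0.03). At an unadjusted p under 0.05, 1 kinase was higher and 0 lower, 0 MYC family genes were higher and 1 lower, and 0 rescue genes were higher and 2 lower, against 4.72% higher and 3.59% lower of all tested genes.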
